A study of Mus musculus with 4 samples.

Results

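The imprinted growth genes described here are H19, Igf2, Igf2r, Dlk1, Meg3, Ndn, Peg3, Grb10, Plagl1 and Gnas. They were taken by exact gene symbol from the series' count table, and all 10 were found among its 24421 genes. RNA was sequenced from LSK cells of mouse bone marrow, which carry Sca1 and Kit, lack lineage markers, and include blood stem cells along with their first multipotent descendants. Mice were 13 to 15 months of age. There were 2 libraries from wild-type (WT) mice and 2 from p53R248W/+ mice, which carry 1 allele of the tumour suppressor p53 with the missense mutation R248W and 1 normal allele. The labels give no other allele or agent for either genotype. They do not say whether the 2 libraries of a genotype came from separate mice, so the spread behind each p-value is that among these libraries and can be technical.

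Imprinted genes are expressed mainly from the maternal or mainly from the paternal chromosome, according to DNA methylation marks set in the germ line. Many of them act on growth. In blood-forming tissue a group of them is best known from long-term stem cells, where H19 restrains the signal of Igf2 through the Igf1 receptor and where loss of imprint control brings resting stem cells into cycle. H19, Igf2r, Meg3 and, in most tissues, Grb10 are read from the maternal chromosome, and Igf2, Dlk1, Ndn, Peg3 and Plagl1 from the paternal one. Gnas gives rise to several transcripts from both. Counts per gene do not tell the parental alleles apart, so imprinting itself was not measured.

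The libraries held 12111126 to 14820759 counted reads. Kit, used in the sort, was at 911 to 1182 CPM (counts scaled to the library total and between libraries by the TMM method). Ly6a, which encodes Sca1, was at 40.2 to 82.9 CPM. All 13 markers of long-term stem cells on the marker list were tested. They summed to 4135 and 4710 CPM in WT and to 5366 and 4413 CPM in p53R248W/+. Among markers of other cells, which the sort is meant to remove, the summed level was 41.1 to 85.1 CPM for 12 genes of marrow stroma and 68.0 to 95.9 CPM for 11 genes of mature blood cells. The 8 endothelial genes, of which Pecam1, Tie1 and Emcn are also expressed by stem cells, summed to 189 and 166 CPM in WT and to 242 and 225 CPM in p53R248W/+. The stromal genes Cxcl12, Pdgfra, Col3a1 and Lum had 0 counts in every library. The 8 progenitor markers summed to 1955 and 827 CPM in WT and to 1228 and 1565 CPM in p53R248W/+, and Mpo, a myeloid granule enzyme gene, made up 1273, 314, 628 and 544 CPM of these. The other 7 summed to 681, 512.5, 601 and 1022 CPM in the same order, so without Mpo the highest library was p53R248W/+ replicate 2, where 5 of the 7 peaked. The 8 cycling markers summed to 1657 and 2329 CPM in WT and to 1252 and 2355 CPM in p53R248W/+, so replicate 1 was the lower in both genotypes.

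Per exon length, the members ran from well expressed to scarce. To compare genes with each other, counts were divided by exon length and scaled to a common total per library (TPM). Gnas was highest at 244 to 314 TPM, above 96.2% of the 13296 genes that passed the filter on low counts. Grb10 followed at 121 to 134 TPM. Ndn (19.3 to 72.6 TPM) and Igf2r (25.8 to 37.5 TPM) came next, and their ranges overlapped. They lay near the middle of the tested genes, above 56.4% and 49.9% of them. Meg3 (3.44 to 13.7), Igf2 (1.27 to 10.2), Dlk1 (0.108 to 5.01), Peg3 (0.901 to 3.16) and H19 (0.624 to 1.93 TPM) made up a scarce group, in which each gene overlapped the next in the order. Meg3 is scarce only per length, since its mean of 28.5 CPM was above the 20.6 CPM of Ndn. Plagl1 was last at 0 to 0.248 TPM. Gnas lay apart from Grb10, Grb10 from Ndn, Igf2r from Meg3 and H19 from Plagl1 in all 4 libraries.

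**Figure D1:**
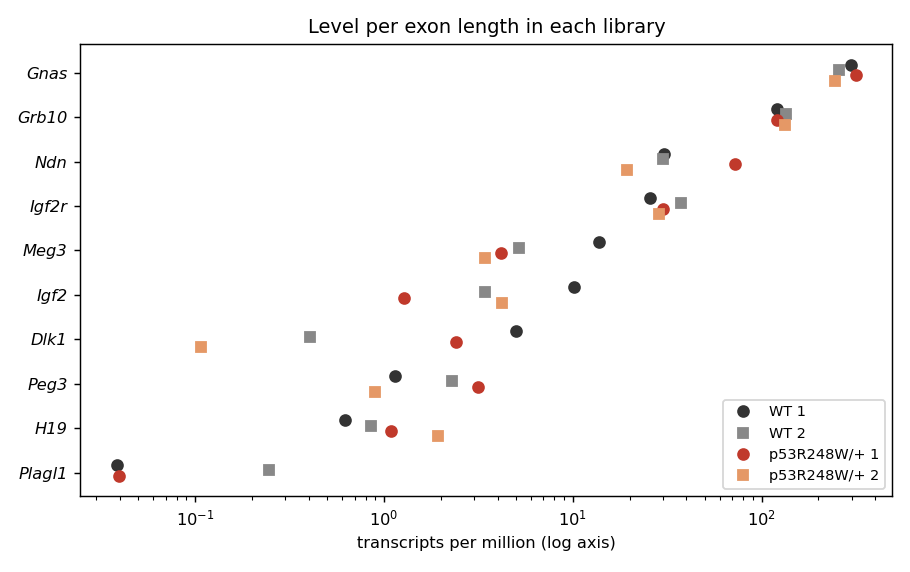
Each point is 1 library, with TPM on a log axis and the genes ordered by their mean. Gnas and Grb10 stand at the top with little spread, Dlk1 ranges from 0.108 to 5.01 TPM, and the Plagl1 library with 0 counts is not drawn.

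None of the members passed the test between genotypes. The filter kept 9 of the 10, and 0 of these 9 reached an adjusted p under 0.05 in the edgeR quasi-likelihood test, with values from 0.824 to 0.985. Over all 13296 genes 0 were called, or 0%, while 780 had an unadjusted p under 0.05, or 5.87%. At that unadjusted level 1 of the 9 members was lower in p53R248W/+, Meg3 (2.86% of all genes were), and 0 were higher (3.01%). No member was among the 6 genes that DESeq2 called or the 4 from the edgeR likelihood ratio test, and limma-voom called 0. The log2 fold change was positive for 3 of the 9 and negative for 6, and their median was -0.06, against -0.000088 over all genes tested. For 2 of the 9, against 33.6% of all genes tested, every library of a genotype lay on its own side. These were Meg3, lower in p53R248W/+ (16.6% of all genes), and H19, higher (16.9%). H19 passed the filter only through its p53R248W/+ libraries, so its place on the higher side was partly set by the filter. Without p53R248W/+ replicate 1 the median was -0.71.

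**Figure D2:**
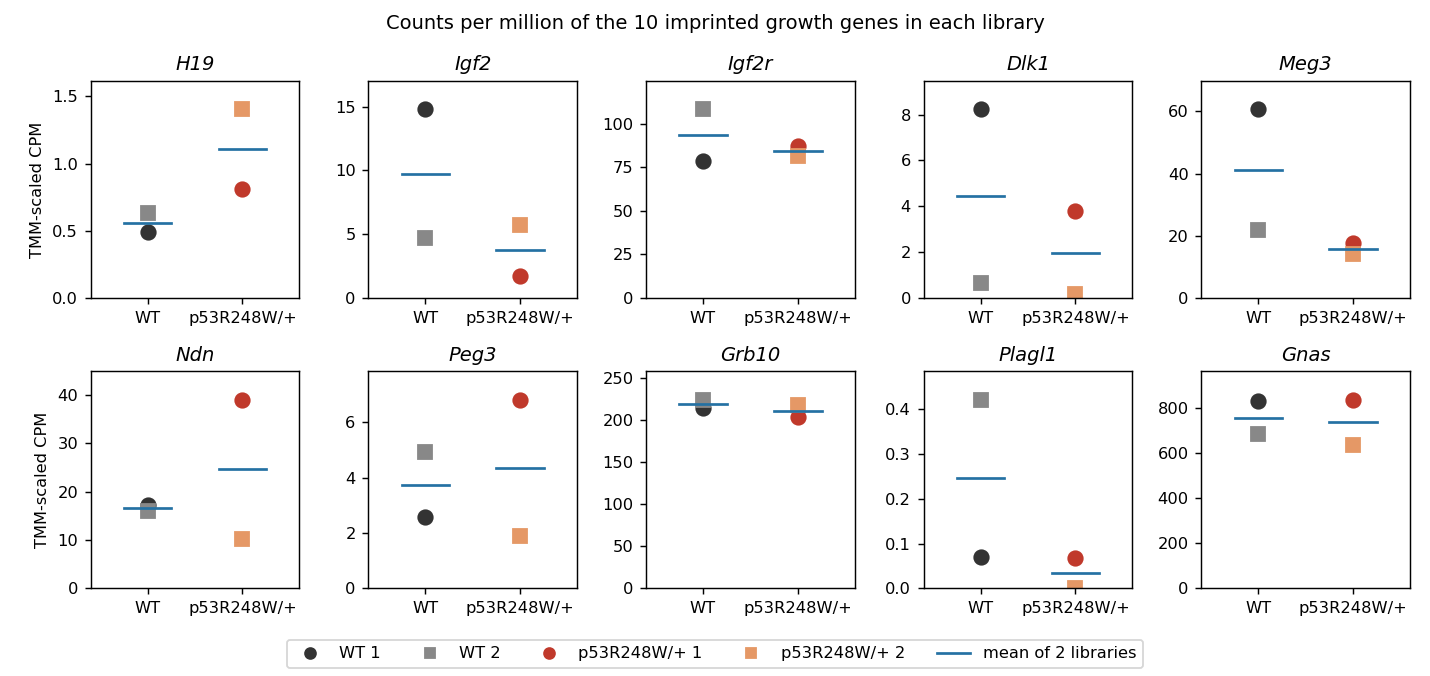
Each panel shows 1 gene, with TMM-scaled CPM from 0 on the vertical axis, 1 point per library and a bar at the mean of the 2 libraries of a genotype. Igf2r, Grb10 and Gnas are nearly level between genotypes, WT replicate 1 stands out for Igf2, Dlk1 and Meg3, and p53R248W/+ replicate 1 for Ndn. Peg3 is also highest in p53R248W/+ replicate 1, at 6.81 CPM, but WT replicate 2 is not far below at 4.91 CPM.

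The chromosome 12 domain of Dlk1 and Meg3 held the only tested member whose interval left out 0. Its paternal gene Dlk1 encodes a transmembrane protein related to Notch ligands that holds back differentiation, and its maternal gene Meg3 a long non-coding RNA that also hosts microRNAs. Meg3 (mm10 chromosome 12, 109540996 to 109571729, plus strand, 11 exon blocks, 12956 exon bases) had 870 and 310 counts in WT and 260 and 172 counts in p53R248W/+. These are 60.7 and 21.7 CPM against 17.5 and 14.2 CPM, or 41.2 ± 27.5 in WT and 15.9 ± 2.35 in p53R248W/+ (SD, n = 2). Both WT libraries lay above both p53R248W/+ libraries, and WT replicate 1 was far above the other 3. The log2 fold change of p53R248W/+ over WT was -1.36 ± 0.52 (SE), with a 95% interval from -2.45 to -0.28, an unadjusted p of 0.0166 and an adjusted p of 0.824 in the edgeR quasi-likelihood test (0.548 to 1 over the alternatives). Without WT replicate 1 it was -0.44 with an unadjusted p of 0.457, and without each of the other libraries it ran from -1.92 to -1.24. Most of the Meg3 difference thus came with WT replicate 1. That library was the highest for the progenitor marker Mpo, but not for the sum of the other 7 progenitor markers, which was highest where Meg3 was lowest, in p53R248W/+ replicate 2. The part of progenitor cells in the Meg3 value was not tested. In sorted bulk RNA, fewer cells that express a gene and less of its RNA per cell cannot be told apart.

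Dlk1 (chromosome 12, 109452823 to 109463336, plus strand, 6 exon blocks) had 118 and 9 counts in WT and 56 and 2 counts in p53R248W/+. In CPM these were 8.23 and 0.631 against 3.78 and 0.165, and the last lies under the 3-count floor of detection used here. Replicate 1 was above replicate 2 in both genotypes, by 13.0-fold in WT, and the genotypes overlapped. Its log2 fold change was -1.04 ± 1.14 (SE; 95% interval -3.45 to 1.36). It turned to 1.75 without WT replicate 1 and was -4.67 without p53R248W/+ replicate 1. Of the 9 tested members 4 were higher in replicate 1 than in replicate 2 in both genotypes (Dlk1, Meg3, Ndn and Gnas), and the share over all genes tested was 25.3%.

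A further maternal non-coding RNA of the domain, Rian, begins 32.2 kb beyond Meg3. Rian was at 18.3 and 7.01 CPM in the WT libraries against 8.09 and 4.30 CPM in the p53R248W/+ libraries, so WT replicate 1 was again the highest library. Its log2 fold change was -0.99 ± 0.72 (SE), or -0.14 without WT replicate 1. The paternal retrotransposon-derived gene Rtl1, the thyroid hormone deiodinase gene Dio3 and the microRNA host Mirg had 0 counts in every library. Begain, 384.6 kb from Dlk1, did not pass the filter and had 0 and 19 counts in WT and 3 and 0 counts in p53R248W/+. Dlk1, Meg3 and Rian were thus each highest in WT replicate 1, and each was lowest in p53R248W/+ replicate 2, whereas Begain was not highest in WT replicate 1. How many of all genes tested had the same highest and lowest library was not counted.

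The start regions of Meg3, Dlk1 and Peg3 are printed because Meg3 and Peg3 hold a cAMP response element there and Dlk1, the partner of Meg3, does not. Each covers 250 bases before and 50 after the start, 5′ to 3′ on the strand of the gene, from RefSeq on GRCm38.p6, which shares its chromosome coordinates with mm10. Capitals mark the cAMP response element TGACGTCA, to which CREB-family factors bind, and the TATA box TATAAA, searched on both strands. The windows are chr12:109540746-109541045 for Meg3, chr12:109452573-109452872 for Dlk1 and chr7:6730370-6730669 for Peg3.
Meg3: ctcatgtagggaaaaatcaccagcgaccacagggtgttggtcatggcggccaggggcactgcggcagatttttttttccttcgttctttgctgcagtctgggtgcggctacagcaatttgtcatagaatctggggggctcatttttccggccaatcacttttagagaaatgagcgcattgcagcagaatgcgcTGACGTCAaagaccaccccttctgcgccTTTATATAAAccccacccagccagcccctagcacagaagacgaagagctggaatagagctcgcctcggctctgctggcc
Dlk1: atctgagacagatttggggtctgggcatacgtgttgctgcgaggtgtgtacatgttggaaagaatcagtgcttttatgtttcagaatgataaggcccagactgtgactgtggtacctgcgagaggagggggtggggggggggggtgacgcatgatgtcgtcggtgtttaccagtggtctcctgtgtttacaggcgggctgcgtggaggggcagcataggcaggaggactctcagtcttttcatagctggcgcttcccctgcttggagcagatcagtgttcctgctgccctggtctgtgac
Peg3: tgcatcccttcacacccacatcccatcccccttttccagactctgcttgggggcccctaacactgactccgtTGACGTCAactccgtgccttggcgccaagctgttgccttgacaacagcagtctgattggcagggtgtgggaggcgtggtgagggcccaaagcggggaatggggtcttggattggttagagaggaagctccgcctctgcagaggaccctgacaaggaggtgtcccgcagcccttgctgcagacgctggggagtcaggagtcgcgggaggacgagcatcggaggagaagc
In Meg3 the cAMP response element begins 57 bases before the start, with 2 overlapping TATA matches, 1 on each strand, at 29 and 25 bases before it. Peg3 holds the same element 178 bases before its start and no TATA match. Dlk1 holds neither. The RefSeq table gave 17 start regions for 9 of the 10 members, H19 being the exception. Apart from those 2 starts of Meg3 and Peg3, none of the 17 held TGACGTCA, which occurs in 1.79% of the 32851 start regions of the table. TATAAA occurs in 13.6% of them, and besides Meg3 it was found at starts of Gnas, among them the one at its deposited first exon. A p53 half-site consensus, the palindrome GGGGCCCC and the CCAAT box were searched too and are not marked above. Among the 17, the p53 half-site occurred at 1 Igf2 start (8.36% of all regions) and GGGGCCCC at the Peg3 start (1.08%). CCAAT occurred at the printed starts of Meg3 and Peg3 and at starts of Igf2 and Gnas (37.4%). A match describes the letters of the window and shows no binding. Meg3 and Peg3 had different patterns over the libraries: Meg3 was highest in WT replicate 1, and Peg3 in p53R248W/+ replicate 1.

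The H19 and Igf2 domain lies on distal chromosome 7. Igf2, a fetal growth factor (142650768 to 142661035, minus strand, 6 exon blocks), had 212 and 67 counts in WT and 26 and 69 counts in p53R248W/+. The values were 14.8 and 4.70 CPM against 1.75 and 5.70 CPM. WT replicate 1 was the highest library and p53R248W/+ replicate 1 the lowest, while both replicates 2 lay close together. The log2 fold change was -1.46 ± 0.87 (SE; 95% interval -3.29 to 0.37), the largest in size among the members. Leaving out WT replicate 1 gave -0.41, and leaving out p53R248W/+ replicate 1 gave -0.77. Leaving out either replicate 2 gave a larger difference, -2.06 for WT with an unadjusted p of 0.0395 and -2.47 for p53R248W/+. H19, the growth-restraining non-coding RNA that shares enhancers with Igf2 (142575530 to 142578146, minus strand), was barely counted, with 7 and 9 counts in WT and 12 and 17 counts in p53R248W/+. Its 0.488 and 0.631 CPM in WT lay under the 0.809 and 1.40 CPM in p53R248W/+, and it passed the filter only through its p53R248W/+ libraries. The H19 log2 fold change of 0.93 ± 1.31 (SE) had a 95% interval from -1.79 to 3.66. The H19 difference was thus smaller than its standard error, and it was 0.52 without p53R248W/+ replicate 2. The microRNA genes inside these loci, Mir675 in an H19 exon and Mir483 in Igf2, had 0 counts, as did the antisense gene Igf2os and the neighbour Ins2. Mir675 shares 84 exon bases with H19 on the same strand, and the handling of such shared reads is not stated. Its 0 counts therefore do not show that it is absent.

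Neither receptor for Igf2 differed beyond the spread between libraries. Igf2r encodes the mannose 6-phosphate receptor, which takes up Igf2 for degradation (chromosome 17, 12682406 to 12769706, minus strand, 48 exon blocks). It was at 78.7 and 108 CPM in the WT libraries against 87.3 and 81.3 CPM in the p53R248W/+ libraries, with overlapping libraries. Its log2 fold change was -0.15 ± 0.27 (SE; 95% interval -0.71 to 0.42), and it turned to 0.10 without WT replicate 2. The non-coding RNA Airn, which silences the paternal Igf2r copy, starts within the Igf2r span. It was at 4.11 and 15.2 CPM in the WT libraries against 17.3 and 8.59 CPM in the p53R248W/+ libraries, and its log2 fold change of 0.47 turned to -0.20 without WT replicate 1 and to -0.17 without p53R248W/+ replicate 1. Slc22a3, an organic cation transporter gene of the same domain, was counted at 80.8 to 138 CPM, and its neighbour Slc22a2 at 0. Igf1r, the signalling receptor for both Igf1 and Igf2 and not itself imprinted, was at 739 and 741 CPM in the WT libraries against 776 and 638 CPM in the p53R248W/+ libraries. Per length Igf1r was at 167 to 199 TPM, above Igf2r in every library. Its log2 fold change was -0.06 ± 0.14 (SE; 95% interval -0.36 to 0.24).

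Grb10 and Gnas, which act in signalling beneath cell surface receptors, showed the smallest spread. Grb10 encodes an adaptor that binds the insulin and Igf1 receptors and dampens their signal (chromosome 11, 11930499 to 12037420, minus strand, 18 exon blocks). It was at 214 and 224 CPM in the WT libraries against 203 and 217 CPM in the p53R248W/+ libraries, or 219 ± 7.17 against 210.2 ± 10.2 (SD, n = 2). Its log2 fold change was -0.06 ± 0.19 (SE), with a 95% interval from -0.45 to 0.33. Gnas encodes the stimulatory G protein subunit that activates adenylyl cyclase (chromosome 2, 174284320 to 174346742, plus strand, 18 exon blocks). It was at 830 and 681 CPM in the WT libraries against 835 and 636 CPM in the p53R248W/+ libraries. The Gnas log2 fold change was -0.04 ± 0.16 (SE; 95% interval -0.37 to 0.29). For Grb10, Gnas and Igf2r a difference of more than 2-fold lies outside the interval, whereas for the other 6 tested members it does not. The Gnas count sums transcripts from several starts, and RefSeq lists 4 of them, so the maternal, paternal and biallelic products were not told apart. Its antisense partner Nespas shares 111 exon bases with it and had 6 counts in WT replicate 2 and 0 in the other libraries.

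Ndn and Peg3 were highest in p53R248W/+ replicate 1, Ndn by the wider margin. Ndn encodes necdin, a growth suppressor that binds E2F1 and p53 and favours quiescence of stem cells (chromosome 7, 62348277 to 62349927, plus strand, a single exon). It was at 17.2 and 16.1 CPM in the WT libraries against 39.0 and 10.2 CPM in the p53R248W/+ libraries. The WT libraries lay between the 2 p53R248W/+ libraries, which were 3.84-fold apart. The log2 fold change was 0.63 ± 0.56 (SE; 95% interval -0.55 to 1.80), and it turned to -0.71 without p53R248W/+ replicate 1. Without p53R248W/+ replicate 2 it was 1.22, with an unadjusted p of 0.0352. Peg12, 111.9 kb from Ndn in the same paternally expressed cluster, was at 4.32 and 3.23 CPM in the WT libraries against 20.2 and 1.16 CPM in the p53R248W/+ libraries, so its highest and lowest libraries were the same as those of Ndn. The sum of the 12 stromal markers was also highest in p53R248W/+ replicate 1, at 85.1 CPM against 41.1 to 50.1 CPM, most of it from Pdgfrb (45.6 CPM) and Col1a2 (32.8 CPM). Lepr had 84 counts there and 0 or 1 elsewhere. In the same library 7 of the 12 were at 0, Cxcl12, Kitl, Pdgfra, Col3a1, Lum, Sparc and Postn, and Col1a1 had 1 count. The sum of the 13 markers of long-term stem cells was highest in p53R248W/+ replicate 1 too, at 5366 CPM against 4135 to 4710 CPM. Without Hlf, the most abundant, 7 of the other 12 peaked there, 3 in WT replicate 1 and 1 in each other library. The part of stromal cells or stem cells in the Ndn and Peg3 values was not tested. Mkrn3, 67.7 kb away, had 0 and 7 counts in WT and 24 and 15 counts in p53R248W/+. Magel2, the nearest of these genes to Ndn, had 0 counts throughout. Snrpn and Snurf also had 0, and they share 1970 exon bases, out of 2380 in Snrpn, and the treatment of such shared reads is not stated.

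Peg3 encodes a zinc finger protein that acts in stress and cell death pathways (chromosome 7, 6705960 to 6730419, minus strand, 9 exon blocks). It had 37 and 70 counts in WT and 101 and 23 counts in p53R248W/+, or 2.58 and 4.91 against 6.81 and 1.90 CPM. The genotypes overlapped, and the log2 fold change of 0.29 ± 0.90 (SE; 95% interval -1.61 to 2.20) turned to -0.10 without WT replicate 1 and to -0.97 without p53R248W/+ replicate 1. The antisense gene Peg3os shares 865 Peg3 exon bases, or 13.1% of them, and had 0 counts, like the neighbours Usp29, Zim1 and Zim2. Plagl1 encodes the zinc finger factor Zac1, a regulator of several of the other members (chromosome 10, 13090788 to 13131695, plus strand, 6 exon blocks). It had 1 and 6 counts in WT and 1 and 0 counts in p53R248W/+ and did not pass the filter, so no fold change is given. It shares 180 exon bases with Hymai, which had 7 counts in WT replicate 2 and 0 elsewhere.

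**Figure D3:**
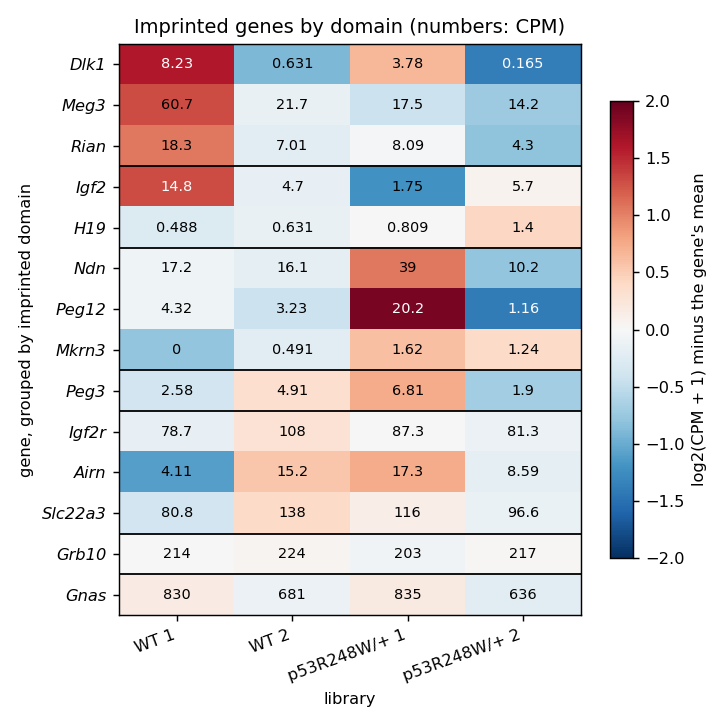
Rows are imprinted genes grouped by domain, columns the 4 libraries, colours the log2(CPM + 1) value minus the mean of the gene, and printed numbers the CPM. Dlk1, Meg3 and Rian are highest in WT replicate 1, Ndn and Peg12 in p53R248W/+ replicate 1, and Grb10 and Gnas hardly vary.

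Libraries of the same genotype lay far apart for several members, Ndn and some of the scarce ones. In WT 3 of the 9 tested members (Igf2, Dlk1 and Meg3) differed by more than 2-fold between the 2 libraries, where 24.8% of all genes tested did. In p53R248W/+ there were 4 (Igf2, Dlk1, Ndn and Peg3), against 23.4% of all genes. The biological coefficient of variation estimated by edgeR was 15.2% for Gnas, 15.8% for Grb10 and 20.7% for Igf2r. It was 35.1% for Meg3, 40.4% for Ndn, 61.5% for Igf2, 73.6% for Peg3, 91.7% for H19 and 92.7% for Dlk1. At their level the trend over all genes was 81.1% for Dlk1 and 98.0% for H19, toward which edgeR shrinks each estimate.

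**Figure D4:**
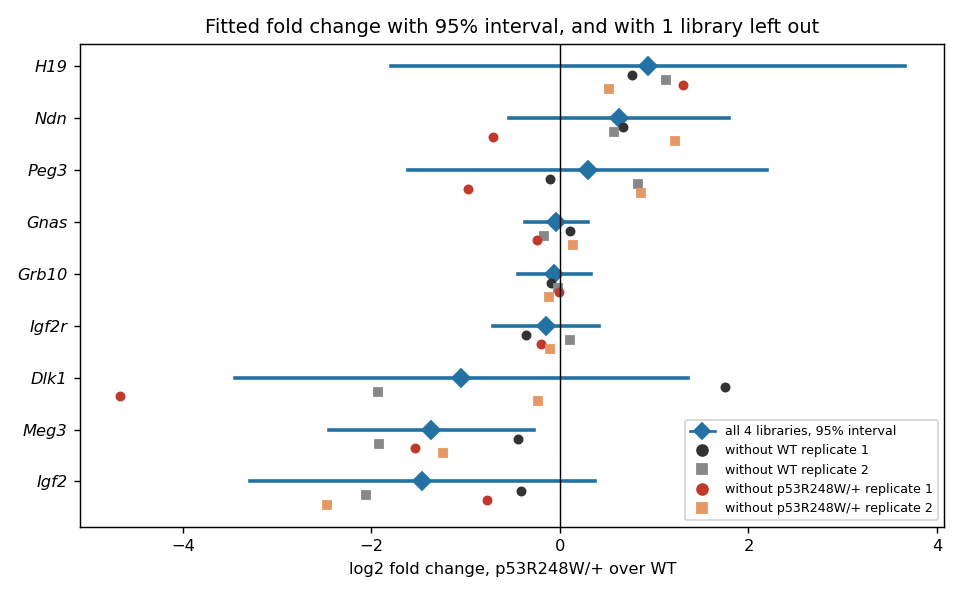
Diamonds are log2 fold changes of p53R248W/+ over WT for the 9 tested members, lines their 95% intervals, and small symbols the value with 1 library left out. Only the Meg3 interval, from -2.45 to -0.28, leaves out 0, and its value moves to -0.44 without WT replicate 1.

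By Euclidean distance between centred log2(CPM + 1) values over the 4 libraries, the gene most like Meg3 was Ndufv3, a subunit gene of respiratory complex I, at 30.3 and 11.6 CPM in the WT libraries against 8.57 and 7.43 CPM in the p53R248W/+ libraries (distance 0.118). The gene most like Igf2 was Mrpl41, a mitochondrial ribosomal protein gene (0.0812). The nearest were H2-T23 for Igf2r (0.0492), Rabggtb for Grb10 (0.0170), Esd for Gnas (0.00858) and Mir3113 for Ndn (0.108). Each was the nearest of 10716 genes over only 4 libraries, so close matches are plentiful and describe these libraries alone.

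No other imprinted gene passed the test. Of 69 matched genes 41 were tested and 21 had 0 counts in every library. None was called by edgeR, 3 had an unadjusted p under 0.05 (7.32%, against 5.87% of all genes), and the median log2 fold change was 0.06. Ube3a, the ubiquitin ligase imprinted in neurons, was at 76.4 and 105 CPM in the WT libraries against 139 and 147 CPM in the p53R248W/+ libraries, with a log2 fold change of 0.66 ± 0.24 (SE). Zdbf2, a paternally expressed growth gene, was at 0.488 and 2.81 against 5.46 and 12.1 CPM (2.36 ± 0.99, SE). With 1 library left out the Zdbf2 value ran from 1.59 without WT replicate 1 to 4.09 without WT replicate 2. Gatm, a creatine synthesis gene imprinted in the placenta, had the smallest p of the list and was lower, at 70.2 and 63.9 against 23.5 and 28.2 CPM (-1.39 ± 0.35, SE). Cdkn1c, the maternally expressed inhibitor p57 that keeps stem cells quiescent, was at 8.09 and 27.9 CPM in the WT libraries against 31.0 and 18.6 CPM in the p53R248W/+ libraries. WT replicate 1 was thus the lowest library for Cdkn1c and the highest for Meg3, Dlk1 and Igf2. Its log2 fold change of 0.49 ± 0.54 (SE) turned to -0.15 without WT replicate 1. The long non-coding RNA Kcnq1ot1 of the same domain was at 820 to 1045 CPM, and Ppp1r9a at 197 to 235 CPM.

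No gene of the Igf pathway list passed the test. Of 38 genes of the Igf receptors, their binding proteins and the PI3K pathway 31 were tested, 0 were called, and 1 had an unadjusted p under 0.05 (3.23%, against 5.87%). That gene was Pik3r1, the regulatory subunit of PI3K, at 490.1 and 475 CPM in the WT libraries against 678 and 604 CPM in the p53R248W/+ libraries (log2 fold change 0.41 ± 0.15, SE). The median of the list was -0.00054. Igf1, the other ligand, was at 1.47 to 4.25 CPM.

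Among 29 genes of Gs and cyclic AMP signalling, on which Gnas acts, 28 were tested and 0 were called. In all 4 had an unadjusted p under 0.05 (14.3%, against 5.87%), 2 in each direction, and the median was 0.03. Adcy9, an adenylyl cyclase, was at 83.7 and 169 CPM in the WT libraries against 232 and 204 CPM in the p53R248W/+ libraries (0.79 ± 0.26, SE; 0.37 without WT replicate 1 and 1.38 without WT replicate 2). Prkacb, a catalytic subunit of protein kinase A, was at 323 and 322 against 396 and 429 CPM. The phosphodiesterase gene Pde4b was at 445 and 260.0 against 219 and 245 CPM (-0.61 ± 0.22, SE; -0.17 without WT replicate 1), and the regulatory subunit gene Prkar2b at 198 and 164 against 144 and 109 CPM. Prkar1a, another regulatory subunit gene, was at 290 to 379 CPM. Crem, a cAMP-responsive factor named after its values were seen, was at 30.6 and 7.15 CPM in the WT libraries against 4.86 and 10.7 CPM in the p53R248W/+ libraries. Crem and Pde4b were highest in WT replicate 1, as Meg3 was, whereas Adcy9 and a further adenylyl cyclase gene, Adcy6, were lowest there. How many genes of the list or of the whole table peaked in WT replicate 1 was not counted. What sets that library apart was not tested.

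Factors that set or keep imprints did not pass the test either. Of 24 listed genes 22 were tested, 0 were called and 1 had an unadjusted p under 0.05 (4.55%, against 5.87%), with a median of -0.01. That gene was the DNA methyltransferase Dnmt3a, at 206.0 and 206 CPM in the WT libraries against 260 and 277 CPM in the p53R248W/+ libraries (log2 fold change 0.38 ± 0.18, SE). The chromatin remodeller gene Atrx was at 910.1 to 1121 CPM and Cbx5, which encodes heterochromatin protein HP1 alpha, at 794 to 1049 CPM. Methylation at the imprinting control regions was not analysed here.

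**Figure D5:**
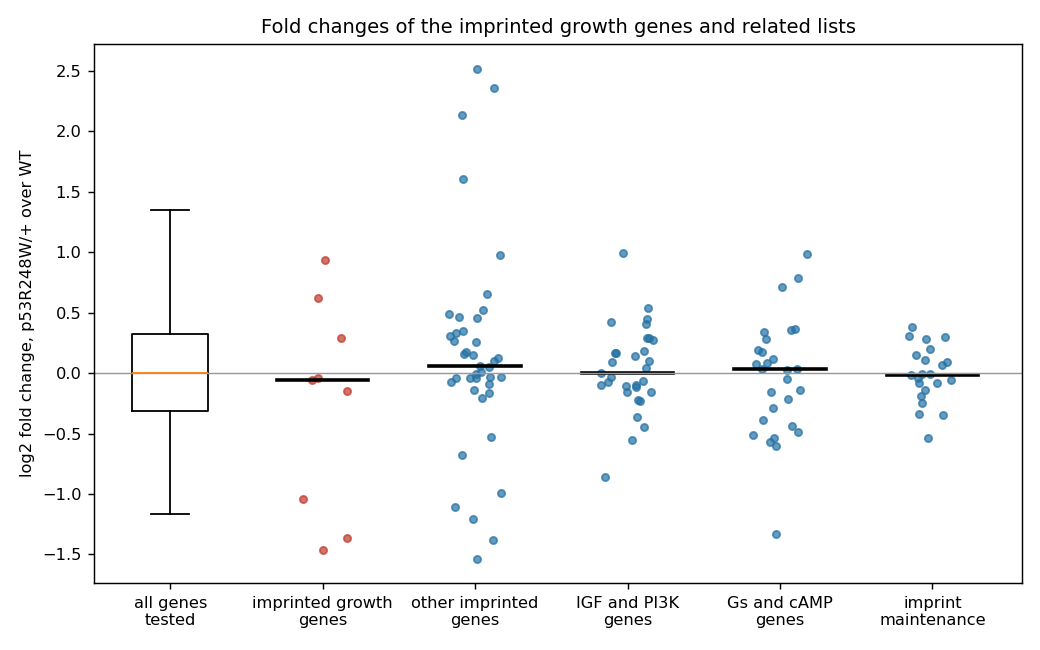
The box gives the median and quartiles of the log2 fold change over all 13296 genes tested, with whiskers from the 5th to the 95th percentile, points are single genes and bars list medians. The 9 tested members lie between -1.46 and 0.93, and the list medians lie between -0.06 and 0.06.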

How the data were processed

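RNA-seq counts of 4 libraries of LSK cells were used, 2 WT and 2 p53R248W/+, grouped by the sample titles and genotype labels. The authors deposited raw read counts per gene with exon coordinates and the summed exon length of each gene as a further column. The build was mm10, and the tools were STAR 2.7.10a, featureCounts (Subread 2.0.3), edgeR 3.40.2 and FastQC 0.11.5, per the submitters' processing notes. Strand setting and the handling of reads shared by several genes are not given in the sources used here, so overlapping genes are uncertain. No row lacked a gene name.

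Genes were filtered with filterByExpr (minimum count 10, minimum total 15) and scaled by TMM. The genotype effect was tested by quasi-likelihood F tests in edgeR 4.0.16 (robust=TRUE, legacy=FALSE, R 4.3.3), with Benjamini-Hochberg adjustment over 13296 genes and a threshold of 0.05. Standard errors were derived from the fold change and its F statistic. The script was tested on simulated data. TPM used the deposited exon lengths. Intervals come from the fit and include the spread among these libraries as edgeR estimated it, which can be technical. The floor of 3 counts covers counting error only, and PCR copies are not independent molecules.

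The members and lists were chosen with earlier results of these data known. All members were named. From each related list up to 4 genes with the smallest unadjusted p under 0.05 and a mean of at least 5 CPM, and the 2 with the highest CPM, could be named. Rian, Begain, Airn, Slc22a3, Cdkn1c, Peg12, Mkrn3, Igf1, Crem, Adcy6, single marker genes and the genes at 0 were named after their values were seen. The pattern rule used genes with a mean of at least 5 CPM. Alternatives were median-ratio and total-count scaling, DESeq2 1.42.0, limma-voom (limma 3.58.1), the likelihood ratio test, robust=FALSE, no filter, a stricter filter, the replicate number as a block, each library left out, and, added after the data were seen, the legacy quasi-likelihood method.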

Additional observations from a re-analysis of the deposited data

How the results depend on the processing

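No member was called under any of the 14 other settings, and 0 genes of the 4 related lists were called under any of them. Over the whole table the number of called genes was 6 with DESeq2 and 4 with the likelihood ratio test, and from 0 to 4 with single libraries left out, the 4 without p53R248W/+ replicate 2. The cause was not tested. H19, Dlk1 and Peg3 did not pass the stricter filter and have no value there. Scaling moved no member across 0. The log2 fold changes with 1 library left out ran from -4.67 to 1.75 for Dlk1, -0.97 to 0.86 for Peg3, -0.71 to 1.22 for Ndn, -0.36 to 0.10 for Igf2r and -0.25 to 0.14 for Gnas, all of which changed direction. Of the other named genes Airn ran from -0.20 to 1.69, Cdkn1c from -0.15 to 1.64, Peg12 from -1.70 to 2.42, Crem from -2.02 to 0.0728, Cbx5 from -0.24 to 0.17, Ppp1r9a from -0.17 to 0.0866, Igf1r from -0.21 to 0.0653 and Prkar1a from -0.0092 to 0.34, also changing direction. The median of the tested members was -0.71 without p53R248W/+ replicate 1. The number of genes at an unadjusted p under 0.05 was 780 with all libraries, and it dropped to 407 when WT replicate 1 was left out and to 327 for p53R248W/+ replicate 1, but was 985 when WT replicate 2 was left out and 895 for p53R248W/+ replicate 2. H19, Igf2, Meg3 and Grb10 kept their direction throughout. Fits with a genotype left at 1 library assume that it varies like the other.

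The labels number the libraries but do not say that a number marks a shared mouse, day or batch. Deviations of same-numbered libraries from their genotype means correlated at r = 0.0126 over genes, which are not independent replicates. With the replicate number as a block 0 genes were called, 758 had an unadjusted p under 0.05, and the Meg3 log2 fold change was -1.35.

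At 12111126 to 14820759 reads per library, H19, Dlk1 and Plagl1 each had fewer than 10 counts in at least 1 library, so counting error is large in those values.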
